A study of Mus musculus with 6 samples.

Results

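Granulocyte granule and S100 genes encode the cargo of neutrophils: the proteases and peroxidase of azurophil granules, the antimicrobial proteins of specific granules, and the calcium-binding S100 proteins of the cytosol. Of 10 such genes chosen by symbol (Mpo, Elane, Prtn3, Ctsg, Camp, Ngp, Ltf, Lcn2, S100a8 and S100a9), 9 had a row among the 15553 genes of the deposited table, and Ctsg was not analysed here. They were measured by RNA sequencing in hematopoietic stem and progenitor cells from the bone marrow of C57BL/6 mice, aged 6 to 8 weeks, sorted for Sca1 and c-Kit without lineage markers. The protocol adds a CD48-negative gate split into CD150-positive and CD150-negative cells, while the source field names CD150-positive cells, so the gate of a library is not settled. The 3 wild-type libraries came from mice with Mx1-Cre alone, and the 3 knockout libraries from mice with Yy1f/f;Mx1-Cre, in which the Cre of an interferon-inducible promoter acts on Yy1 genes flanked by loxP sites. All 6 libraries thus share Mx1-Cre, and the Cre is not restricted to stem cells. YY1 is a DNA-binding zinc-finger protein that also works with the Polycomb group, and the study concerned its part in stem cell quiescence. The labels do not say whether each library came from its own mouse, so p-values measure the spread between these libraries, which may in part be technical.

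Granulocytes fill their granules in a fixed order. Myeloid progenitors and promyelocytes transcribe the azurophil genes under PU.1 and C/EBP alpha, and later myelocytes transcribe the specific granule genes under C/EBP epsilon. S100a8 and S100a9 pair to form calprotectin, one of the most abundant proteins of the neutrophil cytosol, and quiescent stem cells are not known as a main site of any of these products.

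The stretch before the start of each gene was read to see which letters known to bind these factors it holds. RefSeq (GRCm38.p6) gave the 250 bases before the start for all 10 genes, Ctsg included. Both strands were searched for TTGCNNAA, a form of the C/EBP site, for GAGGAAG, a form of the PU.1 site, and for AANATGGC, a form of the YY1 site, and no 2 matches overlapped. All 4 azurophil genes held the PU.1 letters and none held the C/EBP letters. Of the 4 specific granule genes, 3 held the C/EBP letters (Ngp, Ltf and Lcn2) and 1 held the PU.1 letters (Lcn2), while Camp held neither. S100a9 held the C/EBP letters and S100a8 the PU.1 letters. Among 32851 promoters of the same length, 9.56% held the C/EBP letters, 10.6% the PU.1 letters and 3.91% the YY1 letters, which none of the 10 genes held. A match is a run of letters, not a shown binding site. Only 1 form of each site was searched, so a gene without a match may still hold another form.

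Printed here are 3 azurophil genes and 3 later or S100 genes, so that the runs can be compared, each 5′ to 3′ on the strand of its gene, with the PU.1 or C/EBP letters in capitals. They lie at chr11:87793534-87793783 (plus strand), chr10:79886062-79886311 (plus), chr10:79879417-79879666 (plus), chr9:110419558-110419807 (plus), chr9:111019042-111019291 (plus) and chr3:90695722-90695971 (minus), and RefSeq starts can lie inside longer GENCODE gene models.
Mpo: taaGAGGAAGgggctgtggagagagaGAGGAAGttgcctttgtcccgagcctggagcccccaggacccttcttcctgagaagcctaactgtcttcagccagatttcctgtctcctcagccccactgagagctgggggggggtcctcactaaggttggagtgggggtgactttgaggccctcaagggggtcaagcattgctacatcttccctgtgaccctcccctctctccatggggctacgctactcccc
Elane: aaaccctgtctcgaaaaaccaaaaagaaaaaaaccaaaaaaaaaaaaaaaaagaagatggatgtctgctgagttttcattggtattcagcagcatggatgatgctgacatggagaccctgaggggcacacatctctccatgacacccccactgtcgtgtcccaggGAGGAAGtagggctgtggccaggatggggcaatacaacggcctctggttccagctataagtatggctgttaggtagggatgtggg
Prtn3: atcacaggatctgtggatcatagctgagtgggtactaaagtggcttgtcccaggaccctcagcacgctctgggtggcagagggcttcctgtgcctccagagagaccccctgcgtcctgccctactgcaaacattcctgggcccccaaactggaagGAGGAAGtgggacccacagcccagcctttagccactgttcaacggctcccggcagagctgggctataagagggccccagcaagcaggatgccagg
Ngp: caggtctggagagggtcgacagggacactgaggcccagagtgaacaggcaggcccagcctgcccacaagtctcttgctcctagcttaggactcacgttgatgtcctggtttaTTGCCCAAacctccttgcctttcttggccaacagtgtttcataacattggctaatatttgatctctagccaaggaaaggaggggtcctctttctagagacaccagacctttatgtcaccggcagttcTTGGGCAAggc
Ltf: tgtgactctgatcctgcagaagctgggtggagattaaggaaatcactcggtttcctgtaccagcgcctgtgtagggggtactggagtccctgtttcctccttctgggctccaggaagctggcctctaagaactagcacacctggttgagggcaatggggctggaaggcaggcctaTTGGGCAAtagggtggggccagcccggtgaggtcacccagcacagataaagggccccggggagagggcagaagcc
S100a9: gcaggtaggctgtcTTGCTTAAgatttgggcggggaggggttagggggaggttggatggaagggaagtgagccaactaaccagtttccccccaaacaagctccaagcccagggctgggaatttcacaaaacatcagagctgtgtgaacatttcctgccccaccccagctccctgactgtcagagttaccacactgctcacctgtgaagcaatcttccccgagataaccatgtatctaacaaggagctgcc
In Elane and Prtn3, neighbours on chromosome 10, the PU.1 run began 85 and 95 bases before the start. Mpo held it at 247 and 224 bases before the start. Ngp held the C/EBP run at 138 and 11 bases, Ltf at 75 and S100a9 at 236 bases before the start.

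**Figure D1:**
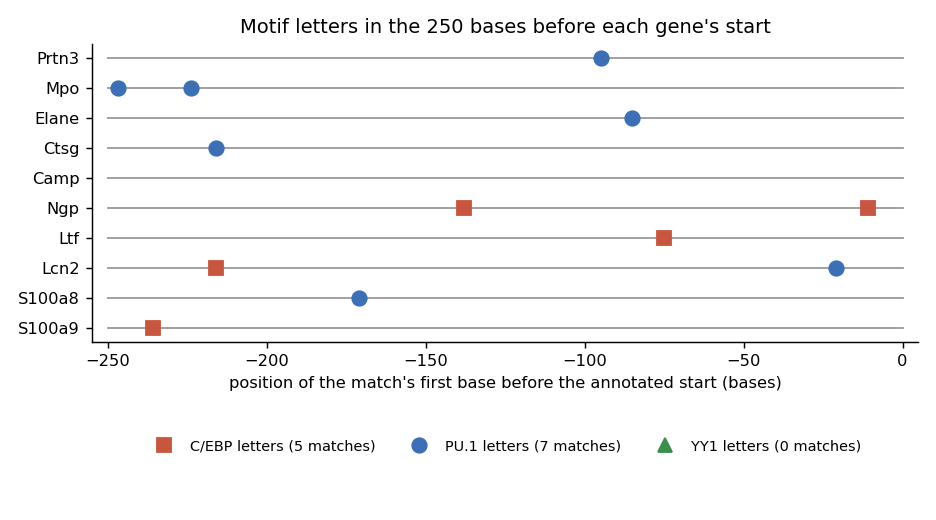
Each line is the 250 bases before the RefSeq start of a gene, and each mark is the first base of a match to the letters of C/EBP (squares), PU.1 (circles) or YY1 (none found), with the start at 0 on the horizontal axis in bases. The 4 azurophil genes at the top carry PU.1 letters only, and the C/EBP letters lie in Ngp, Ltf, Lcn2 and S100a9.

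The deposited RPKM (reads per kilobase of exon, scaled to library size) implied library sizes of 12920190 to 19535460 reads. Reads recovered from the RPKM of listed genes summed to 15102998 to 21757053, above the implied size in every library. Depth is therefore known only approximately. The count of genes listed at 0 was 1099, 747 and 1991 across wild type and 1071, 373 and 1075 across knockout, so replicate 2 of each genotype had the fewest. Wild type replicate 3 stood apart from the other libraries on the first principal component (34.6% of the variance). Yy1 itself stood at 31.6, 42.3 and 52.1 RPKM across wild type (replicates 1 to 3, the order used throughout) and 36.2, 16.6 and 28.5 RPKM across the libraries labelled knockout. The library labelled Yy1 knockout replicate 1 thus lay within the wild-type range, and knockout below means the libraries so labelled.

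Every one of the 9 genes was highest in replicate 2 within wild type and again in replicate 2 within knockout, a pattern found in 9.70% of the 13179 genes tested. All 9 overlapped between genotypes, against a background of 14.5% of tested genes whose genotypes did not overlap. Summed over the 9 genes, the level was 70.7, 174 and 17.7 RPKM across wild type and 35.8, 307 and 56.5 RPKM across knockout. The knockout sum therefore held both a library above every wild-type one and 2 within the wild-type range. Because these are bulk libraries, a change in the number of cells carrying such transcripts and a change in the amount per cell cannot be told apart.

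**Figure D2:**
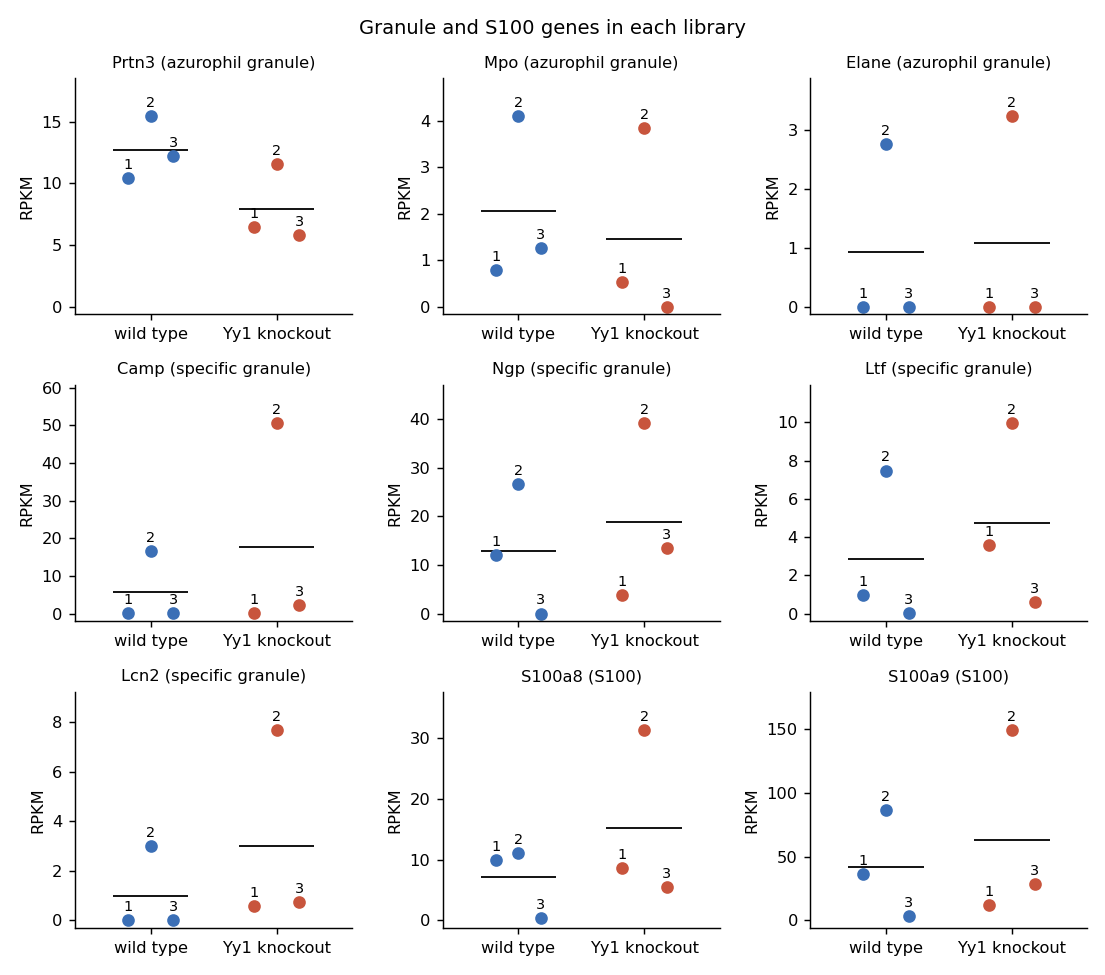
Each panel plots the RPKM of 1 gene on a linear axis in the 3 wild-type (blue) and 3 Yy1 knockout (red) libraries, with the replicate number above each point and the mean as a bar. Replicate 2 is the highest point of both genotypes in all 9 panels, and Prtn3 is the gene whose points lie closest together relative to their level.

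Prtn3 (ENSMUSG00000057729, chromosome 10: 79874476 to 79883174), which encodes the azurophil protease proteinase 3, was the steadiest of the 9. Its level was 10.5, 15.4 and 12.2 RPKM across wild type and 6.44, 11.6 and 5.79 RPKM across knockout, from 194 to 430 reads a library. The knockout libraries 1 and 3 lay below all of wild type, and knockout replicate 2 lay between wild type replicates 1 and 3. The means were 12.7 ± 2.51 and 7.94 ± 3.17 RPKM (SD, n = 3 libraries of each genotype, as for every mean that follows). On the log2(RPKM + 0.5) scale the difference, knockout minus wild type, was -0.69 (standard error 0.34), and the adjusted p over all genes tested was 0.687 in limma (unadjusted p = 0.0822). The direction held in every library left out, from -0.98 to -0.51. It did not pass the test.

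Mpo, the gene of myeloperoxidase (ENSMUSG00000009350, chromosome 11: 87793581 to 87804413), stood at 0.791, 4.10 and 1.26 RPKM across the wild-type replicates and 0.537, 3.84 and 0 RPKM across the knockout replicates. These values rest on 35, 226 and 64 reads across wild type against 32, 230 and 0 across knockout, where 0 reads allows up to 0.0449 RPKM. The 2 replicates numbered 2 were close to each other and above the rest, and the difference of -0.74 (standard error 0.96) did not pass (limma adjusted p = 0.876). Its size depended on how the 0 was treated: it was -2.90 in limma-voom on recovered reads (adjusted p = 0.722) and -1.45 with a pseudocount of 0.1. Without knockout replicate 3 it was -0.04, so most of the difference rested on that library.

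Elane, the gene of neutrophil elastase (ENSMUSG00000020125, chromosome 10: 79886247 to 79888215), was detected in 2 of 6 libraries. It stood at 2.77 RPKM (44 reads) in wild type replicate 2 and at 3.23 RPKM (56 reads) in knockout replicate 2. These read numbers are estimates, since the recovered values, 43.9 and 55.6, were not whole. The other 4 libraries had 0 reads, which allows up to 0.236 and 0.206 RPKM in wild type replicates 1 and 3 and up to 0.175 and 0.156 RPKM in knockout replicates 1 and 3 (counting error only). It therefore did not reach the 1 RPKM in 3 libraries needed for testing. The transcript of elastase and that of its neighbour Prtn3 thus differed in which libraries held them, since Prtn3 was present in all 6.

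Camp, the gene of the cathelicidin antimicrobial peptide (ENSMUSG00000038357, chromosome 9: 109847379 to 109849617), had the widest spread. It had 1, 204 and 2 reads across wild type against 1, 670 and 32 across knockout. In RPKM this was 0.102, 16.7 and 0.178 across wild type against 0.0758, 50.5 and 2.16 across knockout. Nearly all of its reads came from the replicates numbered 2, and the genotypes overlapped. The means were 5.66 ± 9.56 and 17.6 ± 28.5 RPKM, and the log2 difference of 1.16 (standard error 1.85; limma adjusted p = 0.908) turned to -0.63 without knockout replicate 2.

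Ngp encodes neutrophilic granule protein, a cystatin-related specific granule protein (ENSMUSG00000032484, chromosome 9: 110419747 to 110423012). It stood at 12.1, 26.8 and 0 RPKM across the wild-type replicates and 3.86, 39.2 and 13.6 RPKM across the knockout replicates. Wild type replicate 3 had 0 reads (up to 0.166 RPKM), although the gene had 191 and 527 reads in the other wild-type libraries. Its log2 difference of 1.27 (standard error 1.47; limma adjusted p = 0.863) was -0.46 without wild type replicate 3. In limma-voom on recovered reads it was 2.62 (adjusted p = 0.74).

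Ltf, the gene of the iron-binding protein lactotransferrin (ENSMUSG00000032496, chromosome 9: 111019271 to 111042767), stood at 0.987, 7.48 and 0.0196 RPKM across the wild-type replicates and 3.60, 9.96 and 0.579 RPKM across the knockout replicates. Wild type replicate 3 held 1 read of it and the other libraries 39 to 601. The log2 difference was 0.97 (standard error 1.18; limma adjusted p = 0.869). It was 0.06 without wild type replicate 3 and 2.03 without wild type replicate 2, and 2.03 in limma-voom on recovered reads (adjusted p = 0.794).

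Lcn2, the gene of the siderophore-binding protein lipocalin 2 (ENSMUSG00000026822, chromosome 2: 32384633 to 32388252), had 0, 127 and 0 reads across wild type against 26, 353 and 37 across knockout. In RPKM it stood at 0, 3.01 and 0 across wild type against 0.570, 7.69 and 0.722 across knockout. The 0 values allow up to 0.0885 RPKM in wild type replicate 1 and 0.0773 RPKM in wild type replicate 3, so both lay under every knockout library, while wild type replicate 2 lay above knockout replicates 1 and 3. Lcn2 was below the filter and was tested only where no filter was set, with a limma adjusted p of 0.830. Its log2 difference was 1.20 over all 6 libraries, 0.26 without knockout replicate 2 and 4.16 on recovered reads scaled as for limma-voom, with no test there. In the authors' deposited table the log2 fold change was 4.04 with an adjusted p of 0.679.

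S100a8 (ENSMUSG00000056054, chromosome 3: 90668978 to 90670035) and S100a9 (ENSMUSG00000056071, chromosome 3: 90692632 to 90695721) encode the calprotectin chains. S100a8 stood at 9.93, 11.1 and 0.390 RPKM across the wild-type replicates and 8.61, 31.3 and 5.46 RPKM across the knockout replicates. S100a9 stood at 36.3, 86.4 and 3.63 RPKM across the wild-type replicates and 12.1, 149 and 28.2 RPKM across the knockout replicates. Both were lowest in wild type replicate 3, with 4 and 28 reads, and highest in knockout replicate 2, with 380 and 1365 reads. S100a9 was the most abundant of the 9 genes per length in 5 of 6 libraries, the exception being wild type replicate 3, where Prtn3 was. The ratio of S100a9 to S100a8 in RPKM ranged from 1.41 in knockout replicate 1 to 9.31 in wild type replicate 3, so the partner transcripts did not keep a fixed ratio.

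Neither S100 gene passed the test. S100a8 averaged 7.13 ± 5.87 RPKM in wild type against 15.1 ± 14.1 RPKM in knockout, a log2 difference of 1.33 with a standard error of 1.06 (limma adjusted p = 0.803). S100a9 averaged 42.1 ± 41.7 and 63.3 ± 75.1 RPKM, a log2 difference of 0.68 with a standard error of 1.23 (limma adjusted p = 0.924). The S100a9 difference was -0.58 without wild type replicate 3, -0.31 without knockout replicate 2 and 1.62 without wild type replicate 2. The S100a8 difference ranged from 0.13 without wild type replicate 3 to 1.98 without wild type replicate 2.

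As a group, none of the 7 tested genes passed limma at an adjusted p under 0.05, where the background was 0.00% of 13179 genes. None had an unadjusted p under 0.05, against 1027 tested genes (7.79%). Limma-voom on recovered reads called 8 genes (0.0610%), and 24 genes (0.154%) had an adjusted p under 0.05 in the authors' deposited table, none of them among the 9. Of the 9, 7 lay above 0 (51.9% of tested genes did) and 2 below it (48.1% of tested genes). The 7 include Lcn2 and Elane, which were below the filter, while the shares are of tested genes. Elane lay at 0.06, but at -0.20 on recovered reads and at -0.29 in the authors' deposited table, so its sign is not settled. The median difference of the 9 was 0.97 on the log2 scale, beside 0.02 over all tested genes. It was -0.69 over the 3 azurophil genes measured, 1.18 over the 4 specific granule genes and 1.01 over the 2 S100 genes. Leaving out 1 library moved the median of the 9 from -0.39 (without wild type replicate 3) to 1.98 (without wild type replicate 2), and it was -0.31 without knockout replicate 2. Its sign therefore depended on either of 2 libraries. Without the library labelled Yy1 knockout replicate 1 it was 1.47. Leaving out replicate 2 of both genotypes, an alternative chosen after seeing the data, gave 0.95, with no member past the threshold.

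**Figure D3:**
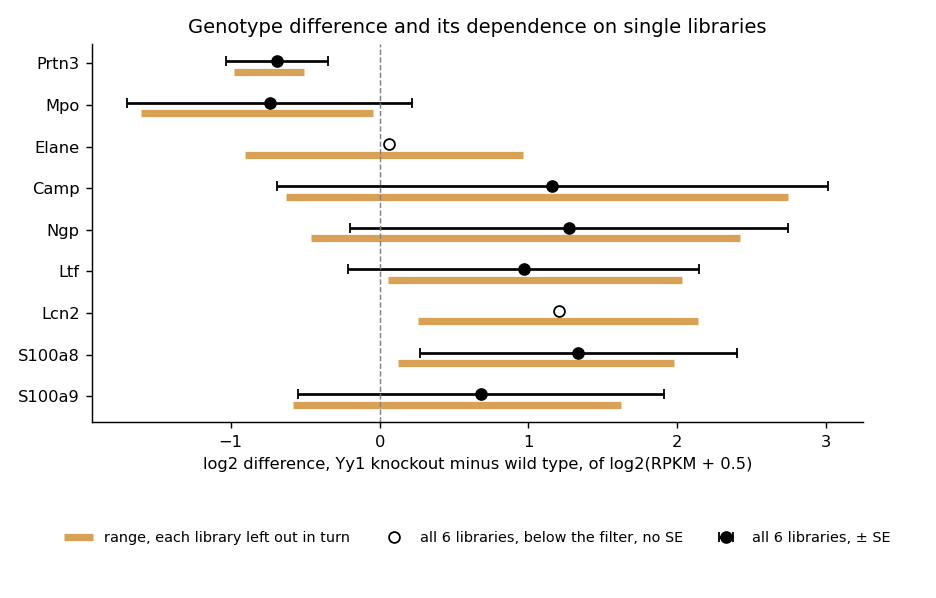
For each gene the filled point and whisker give the log2 difference, knockout minus wild type, ± SE over all 6 libraries, open points mark the 2 genes below the filter, and the orange bar spans the values with each library left out in turn. Bars of Camp, Ngp, S100a9 and Elane cross 0, while those of Prtn3 and Mpo stay below it.

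The spread between libraries of 1 genotype set these genes apart from one another. The within-genotype SD on the log2 scale was 3.03 for Camp, 2.44 for Ngp, 2.06 for S100a9, 1.83 for Ltf, 1.73 for S100a8 and 1.31 for Mpo, where the median of all tested genes was 0.49. The first 5 of these lay above the 96th percentile of tested genes, and Mpo at percentile 89.8. Prtn3, with an SD of 0.41, lay at percentile 40.1. In Prtn3 the highest library exceeded the lowest 1.47-fold in wild type and 2.0-fold in knockout. S100a9 differed 23.8-fold and 12.3-fold in the same comparisons.

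**Figure D4:**
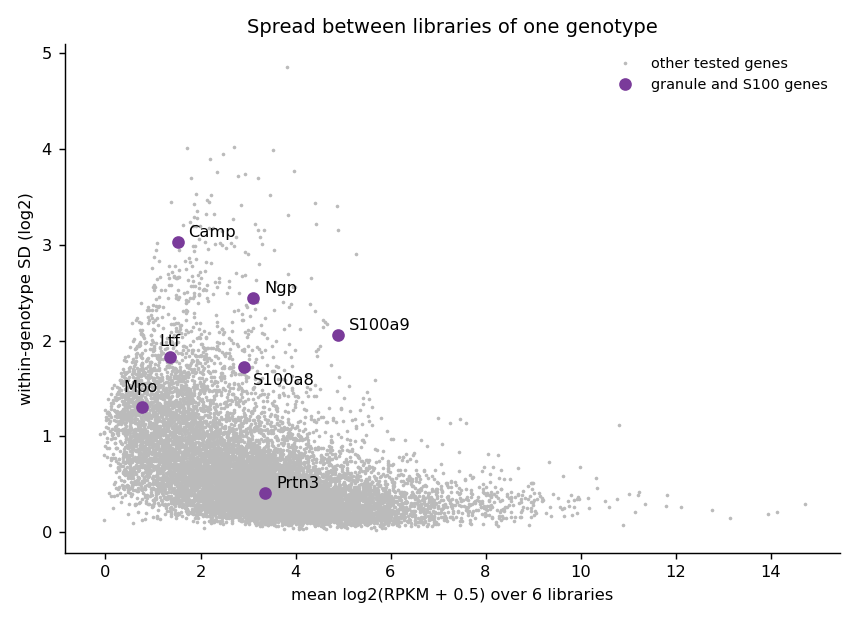
Each grey dot is a tested gene, with its mean log2(RPKM + 0.5) on the horizontal axis and its within-genotype SD (log2) on the vertical axis, and the 7 tested granule and S100 genes are named in purple. Camp, Ngp and S100a9 lie high for their level, and Prtn3 lies within the bulk of genes.

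Over the 6 libraries, Pearson correlations of log2(RPKM + 0.5) described how these genes varied together (6 points each, shared libraries, no test). S100a9 followed Ngp (r = 0.97) and S100a8 (0.90), and S100a8 followed Ngp (0.92) and Ltf (0.86). Mpo followed Prtn3 (0.88). The r of Prtn3 was 0.02 with S100a8, 0.07 with Ngp, 0.27 with Ltf, 0.29 with S100a9 and 0.43 with Camp. The r of Mpo was higher with each of these genes, at 0.35 with S100a8, 0.31 with Ngp, 0.66 with Ltf, 0.52 with S100a9 and 0.69 with Camp. Camp had an r of 0.63 with S100a8. The lowest values thus belonged to Prtn3, but Mpo also had low values with S100a8 and Ngp. Mpo and Prtn3 were the only azurophil genes tested.

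The genes outside the 9 whose profile was most like the mean centred profile of the 7 tested ones were ranked by Pearson r over the 6 libraries. The top 10 were Sik1, Nr4a1, Lyz1, Dgat1, Actr1b, Cyb5r1, Foxk1, Trib1, Gm38020 and Dnajb1, with r from 0.97 to 0.99, and 95 genes reached 0.9. Lyz1 encodes a lysozyme and shares near-identical sequence with Lyz2, so its reads are uncertain. It stood at 1.10, 4.03 and 0.375 RPKM across the wild-type replicates and 1.0, 3.98 and 1.13 RPKM across the knockout replicates.

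The 3 most abundant of the 10 were Nr4a1, Sik1 and Dnajb1. Nr4a1, an immediate-early nuclear receptor, stood at 35.7, 89.5 and 13.04 RPKM across the wild-type replicates and 33.6, 120.4 and 26.3 RPKM across the knockout replicates. Sik1, a salt-inducible kinase, stood at 19.3, 37.3 and 8.76 RPKM across the wild-type replicates and 17.0, 40.1 and 17.5 RPKM across the knockout replicates. Dnajb1, a heat shock co-chaperone, stood at 99.3, 197 and 68.3 RPKM across the wild-type replicates and 102, 198 and 120.4 RPKM across the knockout replicates. Since the 10 were ranked by likeness to the granule genes, sharing their highest libraries is what the ranking selects.

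**Figure D5:**
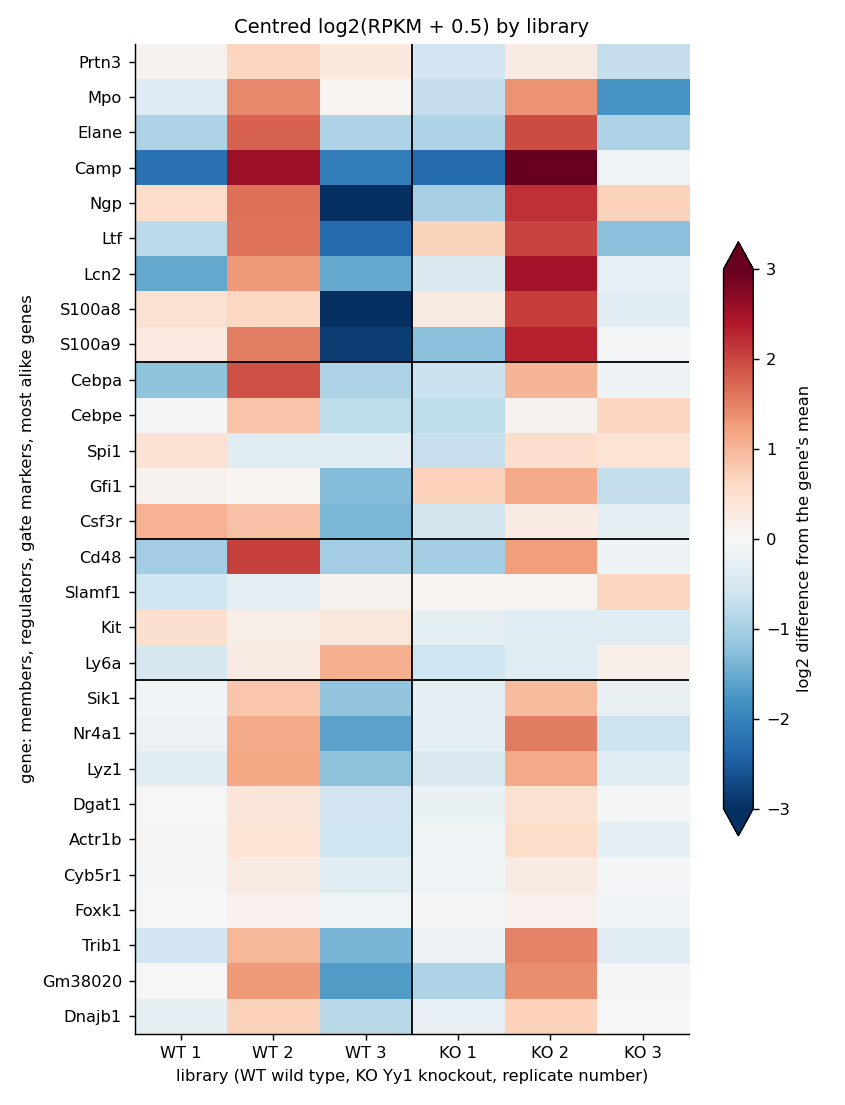
Rows are the 9 genes, granulopoiesis regulators, gate markers and the 10 most alike genes, columns are the 6 libraries, and color gives log2(RPKM + 0.5) minus the gene's mean (scale ends at -3 and 3). In the columns of replicate 2 the 9 genes, Cebpa, Cebpe, Gfi1, Csf3r, Cd48 and the most alike genes lie above their own means. The margin is small, and the color pale, in Foxk1, Cyb5r1 and Dgat1. It is also small in Gfi1 in wild type and in Prtn3, Cebpe and Csf3r in knockout. Spi1, Kit, Ly6a and Slamf1 do not share that pattern.

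Other granule genes were described from fixed lists. In the azurophil list, 5 genes besides the 9 were tested and 0 passed, with 3 above and 2 below 0. Serpinb1a, the cytosolic inhibitor of these proteases, averaged 44.9 ± 3.23 RPKM in wild type against 33.6 ± 6.20 RPKM in knockout (log2 difference -0.43, limma adjusted p = 0.663). Its knockout values of 40.3, 32.4 and 28.0 RPKM all lay below the wild-type values of 41.7, 48.2 and 44.9 RPKM. Serpinb1a was the 1 of the 5 without overlap (background 14.5% of tested genes), and having the smallest p of its list favors that. Srgn, the granule proteoglycan serglycin, averaged 243 ± 53.4 and 240 ± 32.7 RPKM. Ctsc, which activates the granule proteases, had a log2 difference of 0.35 and Gusb, a lysosomal glucuronidase, of 0.22. None of the 5 was highest in replicate 2 of both genotypes.

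In the specific and gelatinase granule list, 9 further genes were tested and 0 passed, with 5 above and 4 below 0. Chil3, a chitinase-like protein of maturing myeloid cells with close paralogs, had 4, 402 and 1 reads across wild type against 205, 320 and 278 across knockout. Its log2 difference was 2.38 with a standard error of 1.21 (limma adjusted p = 0.692), and wild type replicate 2 lay above every knockout library. Lyz2, the myeloid lysozyme, averaged 98.3 ± 20.95 and 76.5 ± 16.2 RPKM. Cyba, an oxidase subunit gene, and Anxa1, the annexin A1 gene, had log2 differences of -0.44 and -0.37. Of the 9, 3 were highest in replicate 2 of both genotypes.

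Of the other S100 genes, all 5 with a row were tested and 0 passed, with 2 above and 3 below 0. S100a10, a partner of annexin A2, was the most abundant and averaged 45.1 ± 5.94 RPKM in wild type against 43.7 ± 12.7 RPKM in knockout. S100a1 ranged from 3.57 to 59.4 RPKM within wild type and was highest in wild type replicate 3, where S100a8 and S100a9 were lowest. S100a6, S100a11 and S100a13 had log2 differences of 1.25, -0.09 and -0.10. S100a6 and S100a10, 2 of the 5, were highest in replicate 2 of both genotypes, as S100a8 and S100a9 were.

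Of the transcription factors and receptors of granulopoiesis, 11 were tested and 0 passed after adjustment. At an unadjusted p under 0.05, 1 lay higher (background 4.73%) and 1 lower (background 3.06%). These were Cebpb, the factor of emergency granulopoiesis, with a log2 difference of 2.06 (limma adjusted p = 0.559), and Cxcr4, the marrow retention receptor, with -0.79 (limma adjusted p = 0.546). Cebpb stood at 0.103, 0.0413 and 0.630 RPKM across the wild-type replicates and 2.60, 1.82 and 3.20 RPKM across the knockout replicates. Its reads were 2, 1 and 14 across wild type against 68, 48 and 94 across knockout. Cebpb reached 1 RPKM only in the knockout libraries and so passed the filter through them alone. Its lack of overlap was fixed by that filter, and its unadjusted p is no support for a difference. Cxcr4 stood at 21.8, 22.0 and 28.0 RPKM across the wild-type replicates and 11.4, 12.8 and 17.0 RPKM across the knockout replicates, also with no overlap. Cebpb and Cxcr4 were the 2 of the 11 without overlap (background 14.5% of tested genes), and a choice by small p favors that. Gfi1, a repressor needed for neutrophil development, had a log2 difference of 0.76, while Myb (-0.04) and Runx1 (-0.14), both factors of early progenitors, lay near 0.

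The factors named with the promoter letters were chosen for that reason, outside the rule for named genes. Cebpa stood at 0.353, 6.88 and 0.539 RPKM across the wild-type replicates and 0.764, 3.47 and 1.26 RPKM across the knockout replicates, highest in replicate 2 of both genotypes as the granule genes were. Cebpe stood at 0.313, 1.05 and 0 RPKM across the wild-type replicates and 0, 0.416 and 0.827 RPKM across the knockout replicates, on 21 reads or fewer. Spi1, the gene of PU.1, stood at 21.2, 12.0 and 12.3 RPKM across the wild-type replicates and 9.40, 22.8 and 20.95 RPKM across the knockout replicates, and did not peak in wild type replicate 2. Csf3r, the receptor of granulocyte colony-stimulating factor, stood at 34.7, 30.8 and 6.07 RPKM across the wild-type replicates and 11.2, 19.8 and 13.6 RPKM across the knockout replicates.

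Markers of the gate and of other cells were set beside the granule genes. Cd48, whose product the gate excludes, had 0, 72 and 0 reads across wild type against 0, 41 and 10 across knockout, or 3.76 RPKM in wild type replicate 2 and 1.97 RPKM in knockout replicate 2. It was thus highest in the same 2 libraries as the granule genes. The gate genes Kit (76.6 to 140 RPKM), Ly6a (26.1 to 84.7 RPKM) and Slamf1 (2.21 to 5.96 RPKM) were present in every library. Of 8 mature neutrophil markers 3 were measured. Their sum was 39.8, 33.5 and 8.22 RPKM across wild type and 13.7, 23.5 and 13.7 RPKM across knockout. Most of it was Csf3r in each library. Cxcr2, the chemokine receptor of mature neutrophils, was at 0 in 4 libraries. It was at 0.326 and 0.413 RPKM (16 and 22 reads) in the replicates numbered 2, and was below the filter. Ly6g, Mmp9, Retnlg, Il1b and Fpr1 were not analysed here.

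Of 8 monocyte and macrophage markers, 4 were measured, with sums of 0.0898, 2.79 and 0.148 RPKM across wild type and 2.14, 8.40 and 12.4 RPKM across knockout. Cd68, a lysosomal macrophage marker, supplied most of it outside wild type replicate 3, and Ccr2 was at 0 in 4 libraries. In the B cell list 1 of 6 was measured, Cd79b, at 13.3 to 28.6 RPKM in wild type against 9.15 to 21.4 RPKM in knockout. In the T and NK cell list 3 of 7 were measured, with sums of 5.07 to 18.3 and 4.32 to 9.58 RPKM, led by Nkg7. The erythroid sum (7 of 10 measured, led by Car2) was 207 to 260.0 and 199.9 to 267 RPKM, and the mast cell, basophil and eosinophil sum (2 of 7, led by Gata2) 44.8 to 51.8 and 36.8 to 48.5 RPKM. Stem cells also express Car2 and Gata2. The part of any such cells in the granule gene levels was not tested.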

How the data were processed

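The submitters' processing notes name mm10, Subread, featureCounts, edgeR and limma. No version or setting is given in the sources used here. Rows of the deposited table number 15553. Its 6 library columns hold what the authors made as RPKM, reads of a gene divided by its length and the library size, as judged from the values, since the header names no unit. Multiplied by exonic length (GENCODE M21, GRCm38), 71.8% of genes with a length were whole multiples of 1 read within 0.02 reads in all libraries. So were 52 of 54 values of the 9 genes, the exceptions being Elane in replicate 2 of each genotype. The authors' log2 fold change, p-value and adjusted p-value, per the file headers, were quoted only where named. The strand setting of the counting is not given, so overlapping genes may share reads. Reads after amplification are not independent molecules.

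RPKM values were tested with limma 3.58.1 in R 4.3.3 (variance trend on, robust off) on log2(RPKM + 0.5), which understates changes of low genes, for the 13179 genes reaching 1 RPKM in 3 or more libraries, with Benjamini-Hochberg adjustment at 0.05. The script was tested on simulated data. Limits at 0 reads are 3 reads. Genes named were all members, from each list the 4 most abundant and the 3 with the smallest p, the most abundant gene of each marker list (1 list is not reported here), and the 10 most alike genes. Members and lists were chosen with earlier results of these data known. Alternatives covered pseudocount, filter, trend, scaling, replicate block, limma-voom and each library left out.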

Additional observations from a re-analysis of the deposited data

How the results depend on the processing

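No member passed the threshold in any alternative that tested it, the smallest adjusted p being 0.622 (Ltf, without wild type replicate 2). Elane and Lcn2 were tested only with no filter, and Camp, Mpo and Ltf not under the filter at 5 RPKM. With each library left out in turn, log2 differences ranged from -0.63 to 2.74 for Camp, from -0.58 to 1.62 for S100a9 and from -0.46 to 2.42 for Ngp, and the sign turned for Camp without knockout replicate 2, for Ngp without wild type replicate 3 and for S100a9 without either. Those of Ltf (0.06 to 2.03), S100a8 (0.13 to 1.98), Mpo (-1.60 to -0.04) and Prtn3 (-0.98 to -0.51) kept their sign. Over all genes, 0 passed in limma, 8 in limma-voom on recovered reads, and 0 to 1 with a library left out, the 1 arising without wild type replicate 1 and again without wild type replicate 2. The list median ranged from -0.39 to 1.98. With a replicate block 0 genes passed, and Prtn3 had an adjusted p of 0.634. Deviations of same-numbered libraries correlated by 0.02, 0.06 and 0.05, so the numbers are not taken to pair them, although 5 of 6 libraries correlated best with their own number. Elane, Lcn2 and Camp rest on few reads in most libraries, where depth limits the comparison. The cause of these dependences was not tested.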
